A study of Mus musculus with 6 samples.

Results

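The 40 genes described here are imprinted genes, named by symbol and grouped by the chromosomal locus they belong to. Their rows were taken from a table of 48709 genes, and all 40 symbols were found there, once each. Hearts of C57BL6/J mouse embryos were sequenced as polyA RNA in 2 genotypes of 3 libraries each. Controls were littermates homozygous for floxed alleles of Rbpms and Rbpms2 (labelled RBPMS flox/flox RBPMS2 flox/flox). Double knockouts carried the same floxed alleles and were positive for a Cre transgene labelled XML Cre, which the series text calls cardiomyocyte specific. Both genes encode RNA-binding proteins. No group carried Cre without the floxed alleles, so effects of Cre and of the deletion cannot be told apart. Sources used here gave no embryonic stage, no promoter for the label XML and no statement that each library was a separate animal. A p-value therefore measures the spread among these 6 libraries, which may be technical.

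An imprinted gene is transcribed mainly from the copy inherited from 1 parent. DNA methylation laid down in the egg or the sperm marks a control region, and that region sets which copy is active across a cluster of genes. Clusters often pair a long noncoding RNA from one parental copy with protein-coding genes from the other, and many of the products act on fetal growth. H19 and Igf2, Dlk1 and Meg3, and Kcnq1ot1 and Cdkn1c are the classic pairs. Which copy was active cannot be read from these data, because the table holds 1 sum per gene for both copies. Statements about maternal or paternal expression below are background.

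Some members also carry small RNAs. Mature sequences are shown for noncoding hosts that the results turn on and for Mest, a coding member that did not pass the test below. RefSeq (GRCm38.p6) places 18 miRNA hairpins on the sense strand inside 3 maternally expressed RNAs of the Dlk1-Meg3 locus: 1 in Meg3, 3 in Rian and 14 in Mirg. The first 4 below come from these hosts, and the last comes from a hairpin inside Mest. Capitals mark the seed, bases 2 to 8.
miR-770-5p (Meg3): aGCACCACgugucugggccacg
miR-370-3p (Rian): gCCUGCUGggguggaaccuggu
miR-134-5p (Mirg): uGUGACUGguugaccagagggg
miR-410-3p (Mirg): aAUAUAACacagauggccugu
miR-335-5p (Mest): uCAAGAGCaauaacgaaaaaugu
These 5 seeds differ from one another. Mature miRNAs were not measured by these polyA libraries. Rows of the table for the hairpin genes themselves held few reads. The 18 inside Meg3, Rian and Mirg ranged from 0 to 5 over the 6 libraries, and 9 of them were at 0 in every library, so no direction is read from them. Mir335, inside Mest, had 11, 9 and 6 in controls 1 to 3 and 13, 6 and 16 in double knockouts 1 to 3.

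Promoters are shown for 3 members whose transcripts differed between genotypes, each as a window of 300 bases around a start from RefSeq (GRCm38.p6). Capitals mark TGCCGC, a hexamer that the imprint-keeping protein ZFP57 binds when it is methylated, or GGGGCCCC, a site of the PLAGL1 protein, on either strand. Each of the 3 windows shown holds a match. The windows of Rian and Mirg, which also differed, and a second window of Meg3 held 0 of either motif. Sgce, which differed too, had no window.
Meg3 (chr12:109540746-109541045, plus strand): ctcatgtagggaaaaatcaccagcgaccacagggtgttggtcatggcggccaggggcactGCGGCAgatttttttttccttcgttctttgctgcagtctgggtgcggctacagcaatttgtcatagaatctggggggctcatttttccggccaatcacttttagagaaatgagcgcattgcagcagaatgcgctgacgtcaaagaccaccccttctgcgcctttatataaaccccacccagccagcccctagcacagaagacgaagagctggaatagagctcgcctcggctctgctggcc
Plagl1 (chr10:13090582-13090881, plus strand): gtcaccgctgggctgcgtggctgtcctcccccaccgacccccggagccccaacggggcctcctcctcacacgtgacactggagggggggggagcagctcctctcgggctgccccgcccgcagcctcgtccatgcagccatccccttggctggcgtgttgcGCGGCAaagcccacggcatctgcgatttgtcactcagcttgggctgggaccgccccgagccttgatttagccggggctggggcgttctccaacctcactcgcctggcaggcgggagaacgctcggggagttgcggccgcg
Usp29 (chr7:6730333-6730632, plus strand): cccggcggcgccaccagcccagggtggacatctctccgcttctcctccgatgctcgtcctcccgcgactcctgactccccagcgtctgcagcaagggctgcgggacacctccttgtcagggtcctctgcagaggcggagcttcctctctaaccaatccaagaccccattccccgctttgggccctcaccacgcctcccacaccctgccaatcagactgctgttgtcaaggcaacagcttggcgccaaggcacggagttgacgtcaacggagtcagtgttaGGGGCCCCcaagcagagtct
The table of promoters matched 34 of the 40 members, with 48 windows. TGCCGC was present in 11 of the 48 windows (22.9%) and in 11.6% of the 32851 windows of the whole table. Of these 11, 2 are windows of Mest that overlap almost wholly and hold the same hexamers. Counted once per gene, TGCCGC was present in 10 of 34 members (29.4%) and in 13.1% of all genes of the table. GGGGCCCC was present in 3 of the 48 (6.25%) and in 1.08% of all windows. The windows of Usp29 and Peg3 overlap on opposite strands and share 1 GGGGCCCC, and the third was in Ppp1r9a. Member windows were also richer in CpG, with a median of 14 CpG per window against 7 over all windows, and TGCCGC itself contains a CpG. A match describes letters, not binding.

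Libraries summed to between 19770390 and 20215282 in deposited values, for an estimated 18760280 to 21993981 reads. Values below are these normalised read counts, in which 1 read is worth 0.899 to 1.06. Both targeted genes checked the labels: Rbpms fell from 3787 ± 210.5 to 697 ± 25.6 and Rbpms2 from 2577 ± 136 to 1454 ± 211 (mean ± SD, n = 3 per genotype; limma adjusted p = 6.83e-13 and 2.92e-05). Both libraries numbered 3 stood apart from the rest by a male pattern: Xist was at 6 and 20 there and at 19501 to 25229 in the other libraries. Across 13773 genes, Spearman's rho between a gene's deviation in a library and the GC content of its longest transcript was 0.274, 0.204 and 0.385 in controls 1 to 3. It was 0.101, -0.165 and -0.576 in double knockouts 1 to 3, so this trend moved with genotype.

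The 40 members passed the filter on low values (a mean of at least 1 in 1 genotype). At an adjusted p under 0.05 in the limma fit over 26747 genes, 4 members were higher in double knockouts (Meg3, Rian, Mirg and Plagl1) and 2 were lower (Sgce and Usp29). Over all tested genes the same rule called 2.31% higher and 2.55% lower, 4.86% in either direction. In whole tissue, fewer cells of a type and less RNA per cell cannot be told apart. The median log2 fold change was 0.06 over the members, where a positive value means higher in double knockouts, and 0.02 over all tested genes. Members ranged from -0.65 to 0.86, with 26 above 0 and 14 below. The 0.86 was that of Dio3, which had values of 0 to 2 and passed the filter through double knockouts alone. Plagl1 came next at 0.68. Genotypes did not overlap in 10 members that were higher and 5 that were lower, beside 11.1% and 10.6% of all tested genes. Of the 16 members listed as expressed from the maternal copy, 3 were called higher and 0 lower at that threshold. These 3, Meg3, Rian and Mirg, all belong to the Dlk1-Meg3 locus. Of the 21 listed as expressed from the paternal copy, 1 was called higher and 2 lower. The listings are background and were not measured in these hearts. The difference between these 2 classes was not tested. Without robust moderation of the variances, 3 of the 6 stayed called (Meg3, Rian and Sgce), beside 0.538% of all tested genes called higher and 0.770% lower, 1.31% in all. After each library's trend with GC content and transcript length was taken out, 7 members were called (4 of these 6, with Rian and Plagl1 lost and H19, Mest and Kcnq1ot1 gained), beside 2.82% higher and 3.10% lower, 5.91% in all. Without both libraries numbered 3, which leaves 2 against 2, 0 members passed in limma and 7 had an unadjusted p under 0.05. The share of all tested genes at that unadjusted p was not computed, so the 7 are not read as a result about the members.

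**Figure D1:**
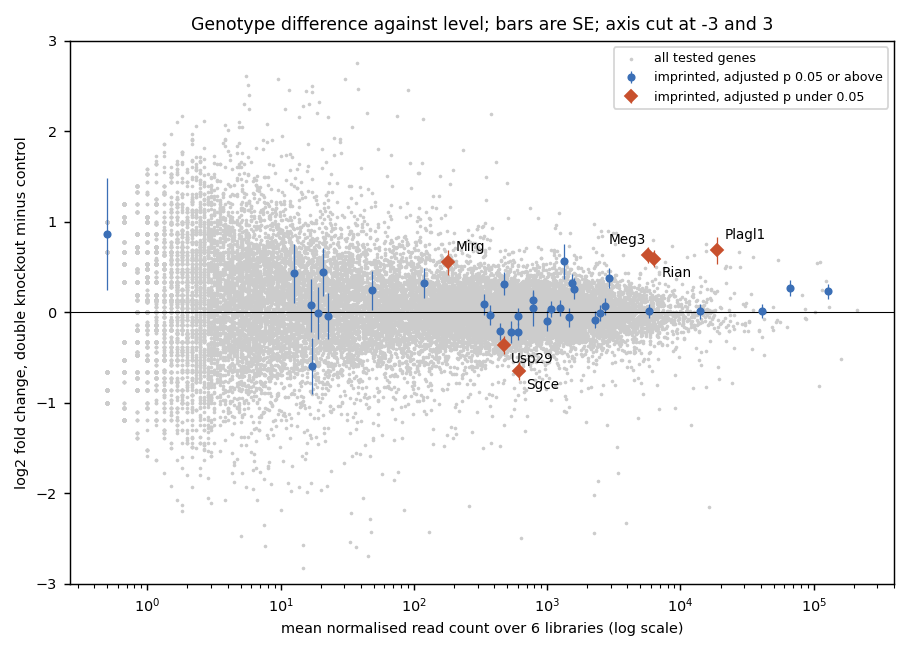
Log2 fold change of double knockout minus control (vertical axis) against the mean normalised read count over 6 libraries (horizontal log axis) for all tested genes in grey and for the 40 imprinted genes in colour, with bars of 1 SE. The 6 called members lie between -0.65 and 0.68, and the abundant H19 and Mest sit at 0.23 and 0.26. The vertical axis stops at -3 and 3.

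Members covered a wide range of levels. Per kilobase of annotated exon, H19 was the most abundant in controls, at 48140, followed by Mest at 15150 and Grb10 at 4468. Cd81 (1997), Plagl1 (1840) and Peg3 (1045) came next. At the low end, Magel2 was at 4.10, Rtl1 at 3.62 and Dio3 was listed at 0. Of the 40, 8 had a mean under 100 over the 6 libraries, and these carry the spread of small counts.

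**Figure D2:**
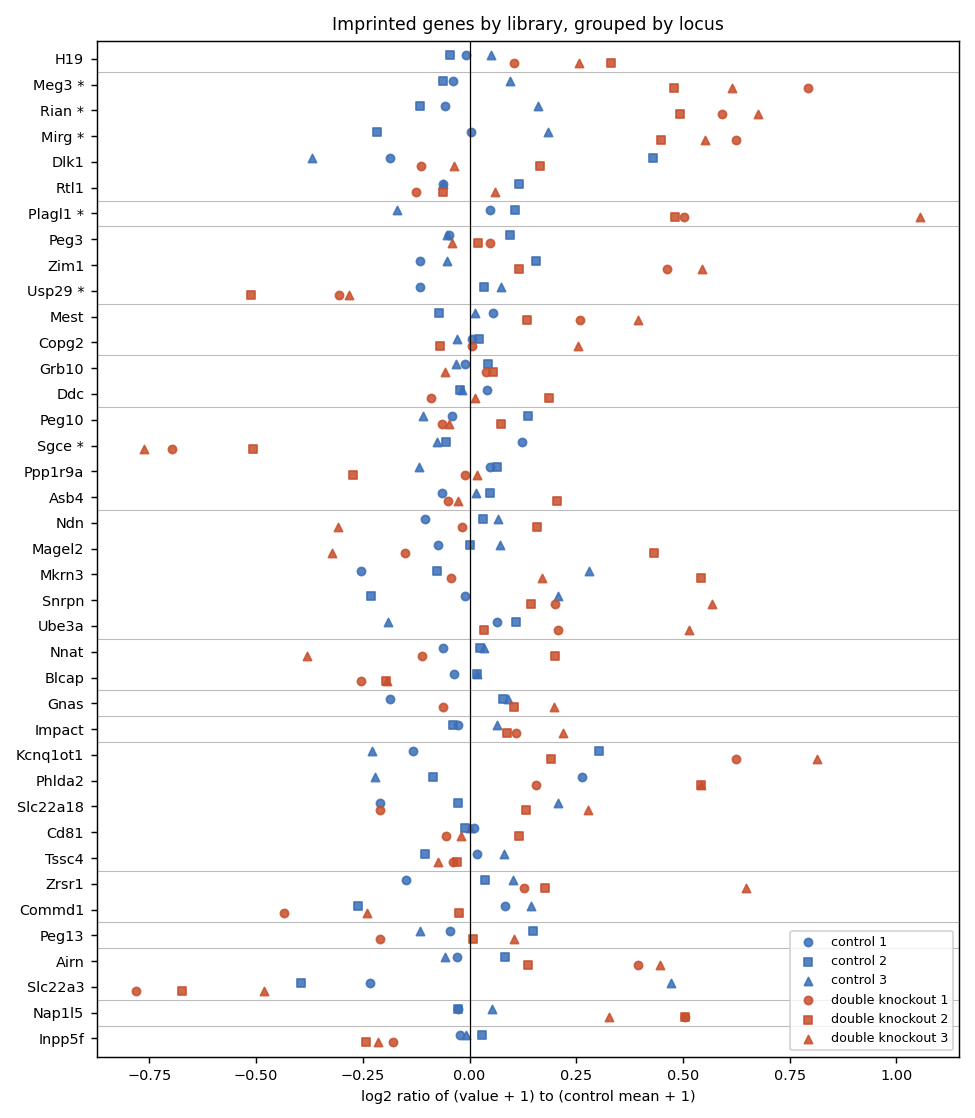
Each row is 1 imprinted gene and each point 1 library, as the log2 ratio of (value + 1) to (control mean + 1), with controls in blue and double knockouts in red; lines separate loci, and stars mark adjusted p under 0.05. Dio3, with values of 0 to 2, is left out. The points of Meg3, Rian and Mirg separate by genotype to the right and those of Sgce to the left, while those of Peg3, Grb10 and Peg10 mix near 0.

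At the Dlk1-Meg3 locus, the maternally expressed noncoding RNAs rose together and the paternally expressed coding genes did not pass the test. Meg3 (ENSMUSG00000021268, chromosome 12, 109541001 to 109571726, plus strand), a noncoding RNA at the start of the maternal transcription unit, was at 4367, 4293 and 4792 in controls 1 to 3 and at 7764, 6254 and 6870 in double knockouts 1 to 3. Each double knockout library was above each control. Meg3 rose from 4484 ± 269 to 6963 ± 759, or by 0.63 on the log2 scale (SE 0.09, limma adjusted p = 0.000286). Rian (ENSMUSG00000097451, chromosome 12, 109603940 to 109661716, plus strand), a host of small nucleolar RNAs, was at 4851, 4663 and 5642 in controls and at 7608, 7112 and 8069 in double knockouts. Again the genotypes did not overlap, and the rise was 0.59 on the log2 scale (SE 0.09, adjusted p = 0.0005). After correction for GC and length, the difference of Rian, whose longest transcript has 35.8% GC, was 0.37 (adjusted p = 0.212), and that of Meg3 was 0.62 (adjusted p = 0.000505). Mirg (ENSMUSG00000097391, chromosome 12, 109729764 to 109749460, plus strand), the host of the 14 hairpins above, was at 148, 127 and 168 in controls and at 228, 202 and 217 in double knockouts. It rose by 0.55 on the log2 scale (SE 0.14, adjusted p = 0.0232). Mirg no longer passed when control 1 or 2 or double knockout 1 or 3 was omitted (adjusted p as high as 0.103) or without robust moderation (adjusted p = 0.0921). Meg3 and Rian passed whichever single library was omitted (adjusted p as high as 0.00968 and 0.0162). Of Meg3 exon bases, 6.79% are shared with a gene on the other strand.

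Dlk1, a transmembrane protein related to Notch ligands, was at 686, 1052 and 604 in controls and at 721, 875 and 761 in double knockouts. Control 2 was the highest of the 6 libraries and control 3 the lowest, so the genotypes overlapped (0.05, 95% interval -0.43 to 0.52 on the log2 scale). Rtl1, a gene derived from a retrotransposon, had 22, 25 and 22 against 21, 22 and 24. Of its exons, 8.12% overlap miRNA genes on the other strand, and no source used here gave the strand setting of the counting. Dio3, which inactivates thyroid hormone, was listed at 0, 0 and 0 in controls and at 2, 1 and 0 in double knockouts. Protein-coding neighbours within 500 kb of the locus that are on no list of imprinted genes, 5 of them tested, had 0 calls in either direction and a median of 0.03.

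**Figure D3:**
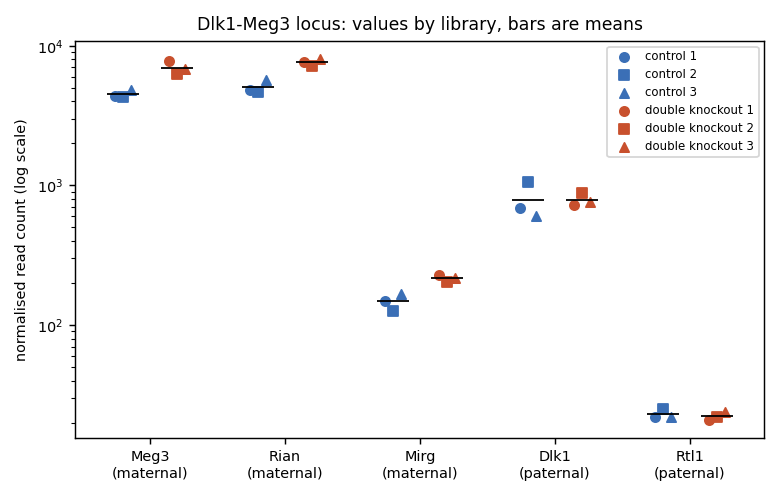
Normalised read counts on a log axis for 5 genes of the Dlk1-Meg3 locus, with 1 point per library, controls in blue on the left and double knockouts in red on the right of each pair, and bars at the means. Meg3, Rian and Mirg (maternal copy) are separated by genotype, and Dlk1 and Rtl1 (paternal copy) overlap.

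Plagl1 (ENSMUSG00000019817, chromosome 10, 13060504 to 13131694, plus strand), a paternally expressed zinc finger transcription factor that is known to act on other imprinted genes, was at 14866, 15495 and 12789 in controls and at 20375, 20075 and 29897 in double knockouts. Genotypes did not overlap, and double knockout 3 stood far above the other 2. Plagl1 rose from 14383 ± 1416 to 23449 ± 5586, or by 0.68 on the log2 scale (SE 0.15, limma adjusted p = 0.0279). It no longer passed when any one control was omitted (adjusted p as high as 0.0867), without robust moderation (adjusted p = 0.109) or after correction for GC and length (0.63, adjusted p = 0.106). Without both libraries numbered 3 the log2 fold change was 0.41 (adjusted p = 0.2). Of 8 tested neighbours of Plagl1 so defined, 2 were higher and 0 lower, beside 2.31% and 2.55% of all tested genes. Fuca2, a fucosidase gene, rose from 720 ± 35.5 to 1018 ± 84.2, and Pex3, a peroxisome biogenesis gene, from 359 ± 4.93 to 486 ± 29.8 (limma adjusted p = 0.00273 and 0.0135).

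Sgce (ENSMUSG00000004631, chromosome 6, 4674350 to 4747207, minus strand) had the lowest log2 fold change of the 40 members. It encodes epsilon-sarcoglycan, a membrane protein of the dystrophin-associated complex. Sgce was at 816, 721 and 710 in controls and at 462, 527 and 441 in double knockouts, with a wide gap between the genotypes. Sgce fell from 749 ± 58.3 to 477 ± 44.8, or by 0.65 on the log2 scale (SE 0.10, limma adjusted p = 0.000469). It passed whichever single library was omitted (adjusted p as high as 0.0152). Peg10, a retrotransposon-derived gene whose start lies beside that of Sgce on the other strand, was at 2439, 2762 and 2329 in controls and at 2402, 2642 and 2429 in double knockouts. Its log2 fold change was -0.01, with a 95% interval of -0.19 to 0.18. Asb4, a ubiquitin ligase adaptor gene, had 1224 ± 49.0 against 1265 ± 127, and Ppp1r9a, which encodes the actin-binding protein neurabin, 2348 ± 159.6 against 2217 ± 239.6. Both overlapped between genotypes. Of the 4 members of this locus, 1 passed.

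At the Peg3 locus, 1 of 3 members passed the test. Peg3, a zinc finger protein gene active on the paternal copy, was at 13474, 14869 and 13428 in controls and at 14390, 14112 and 13534 in double knockouts, with a log2 fold change of 0.01 (95% interval -0.16 to 0.18). Usp29 (ENSMUSG00000051527, chromosome 7, 6730578 to 6967219, plus strand), a ubiquitin protease gene that starts beside Peg3 and runs the other way, was at 493, 547 and 562 against 432, 374 and 439. Each double knockout library was below each control. Usp29 fell by 0.36 on the log2 scale (SE 0.10; limma adjusted p = 0.0448). It no longer passed when any one of the 6 libraries was omitted (adjusted p as high as 0.239), with a male or female pattern as a covariate (adjusted p = 0.0565), with the replicate number as a block (adjusted p = 0.0635) or without robust moderation (adjusted p = 0.116). After correction for GC and length it was -0.47 (adjusted p = 0.00393). Of Usp29 exons, 14.3% overlap Zim3 on the other strand. Zim1, a maternally expressed zinc finger gene, was at 2326, 2809 and 2431 in controls and at 3477, 2733 and 3681 in double knockouts. Double knockout 2 lay within the control range, and the difference of 0.38 ± 0.11 did not pass (adjusted p = 0.0524, and 0.0489 with the replicate number as a block).

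The most abundant members were H19 and Mest. H19, a maternally expressed noncoding RNA that hosts miR-675, was at 117846, 114820 and 122602 in controls and at 127365, 149015 and 141417 in double knockouts. The genotypes did not overlap, but the difference of 0.23 ± 0.08 did not pass (limma adjusted p = 0.134). After correction for GC and length it was 0.35 (adjusted p = 0.0115). Igf2, the paternally expressed growth factor gene beside it, had 101243 ± 4452 and 101686 ± 3900 (adjusted p = 0.978). Mest, which encodes a protein of the alpha/beta hydrolase fold, was at 62115, 56892 and 60264 in controls and at 71539, 65616 and 78608 in double knockouts. All 3 double knockout values were above the controls, with a log2 fold change of 0.26 ± 0.09 (adjusted p = 0.0919). After the same correction it was 0.25 (adjusted p = 0.0183). Copg2, a coatomer subunit gene that overlaps 23.1% of the exon bases of Mest from the other strand, had 2640 ± 49.7 against 2772 ± 332 (adjusted p = 0.746). Nearby, the transcription factor gene Klf14 fell from 78, 71 and 65 to 30, 29 and 52 (-0.98, adjusted p = 0.0161), but did not pass when any one control or double knockout 1 or 2 was omitted. Cpa4, a carboxypeptidase gene within 500 kb of Mest, rose from 52.7 ± 11.1 to 137 ± 21.4 (1.37, adjusted p = 0.000139). It was the 1 call among 11 tested neighbours on no list of imprinted genes, a set that leaves out Klf14.

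Kcnq1ot1 and Airn are paternally expressed noncoding RNAs, antisense to Kcnq1 and Igf2r, that are known to silence neighbouring genes on the same chromosome. Kcnq1ot1 was at 982, 1329 and 919 in controls and at 1660, 1229 and 1894 in double knockouts. Control 2 was above double knockout 2, so the genotypes overlapped. The log2 fold change was 0.56 ± 0.20, with a 95% interval of 0.10 to 1.03 (limma adjusted p = 0.184). After correction for GC and length it was 0.54 (adjusted p = 0.00683). Airn was at 1339, 1448 and 1313 against 1798, 1502 and 1863. Here each double knockout library was above each control, and the difference of 0.33 ± 0.09 missed the threshold (adjusted p = 0.0503). Kcnq1ot1 shares 1.20% of its exon bases with exons of genes on the other strand, and Airn shares 0%. These shares leave out introns, and Kcnq1ot1 lies wholly within Kcnq1 on the other strand. The strand setting of the counting was not given. The part of unspliced reads of Kcnq1 and Igf2r in these values was not tested.

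The coding genes of both loci named here did not pass the test. Cdkn1c, an inhibitor of cyclin-dependent kinases, had 13711 ± 609.6 in controls and 12129 ± 1413 in double knockouts (adjusted p = 0.2905). Igf2r, a receptor that clears IGF2, had 88447 ± 5161 against 84476 ± 8042 (adjusted p = 0.711). Phlda2, a regulator of placental growth, was at 9 to 13 in controls and 12 to 16 in double knockouts, and the transporter gene Slc22a18 at 14 to 19 and 14 to 20. Cd81, a tetraspanin gene, had 5750 ± 39.0 against 5811 ± 371.5 (0.01, 95% interval -0.16 to 0.19), and Tssc4 had 609 ± 39.1 against 590 ± 9.45. Slc22a3, an organic cation transporter gene, was at 18, 16 and 30 against 12, 13 and 15, below each control in each double knockout but at low counts (adjusted p = 0.309).

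Grb10, an adaptor that restrains insulin and IGF signalling, was at 40286, 41837 and 39712 in controls and at 41683, 42202 and 39014 in double knockouts. Its difference was 0.01 with a 95% interval of -0.16 to 0.18. Ddc, the aromatic amino acid decarboxylase next to it, known for a paternally expressed form in fetal heart muscle, had 1048 ± 25.7 against 1078 ± 106 (adjusted p = 0.869). A neighbour of both, the actin nucleator gene Cobl, fell from 361 ± 33.8 to 237 ± 27.4 (-0.61, adjusted p = 0.00474).

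None of the 5 members of the Snrpn-Ube3a cluster passed. Their log2 fold changes ran from -0.05 to 0.32. Snrpn, a core protein gene of the spliceosome, was at 417, 358 and 485 against 483, 464 and 623 (adjusted p = 0.184). The overlap with Snurf covers 27.3% of its exon bases together with a second same-strand gene, so reads could have been split or dropped there. Ube3a, a ubiquitin ligase gene imprinted in neurons, was at 1507, 1556 and 1264 against 1666, 1476 and 2059 (adjusted p = 0.237). Ndn, which encodes necdin, had 1472 ± 90.3 against 1429 ± 229 (adjusted p = 0.819). Magel2 was at 18 to 20 in controls and 15 to 26 in double knockouts, and Mkrn3 at 37 to 54 and 43 to 65.

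None of the members of the remaining loci passed, and several of them lie within another gene. Blcap was at 631, 655 and 655 in controls and at 542, 565 and 566 in double knockouts (-0.21 ± 0.09, adjusted p = 0.193). Nnat, neuronatin, which lies within Blcap, was at 989, 1050 and 1057 against 956, 1186 and 793 (-0.10, adjusted p = 0.694). Inpp5f, a phosphoinositide phosphatase gene, showed the same kind of gap as Blcap, at 466, 483 and 471 against 418, 400 and 408 (-0.21 ± 0.09, adjusted p = 0.232). Both Blcap and Inpp5f were separated by genotype, as were 21.7% of all tested genes in either direction. Impact, an inhibitor of the kinase GCN2, was at 733, 727 and 781 against 806, 794 and 870 (adjusted p = 0.418). Zrsr1, a splicing factor gene, had 94, 107 and 112 against 114, 118 and 164, and Commd1, which spans it, 611, 481 and 637 against 426, 567 and 488 (adjusted p = 0.301 and 0.343). Nap1l5, a nucleosome assembly gene within Herc3, was at 17, 17 and 18 against 25, 25 and 22 (adjusted p = 0.382). Peg13, a noncoding RNA within Trappc9, was at 363, 416 and 346 against 324, 377 and 403 (adjusted p = 0.917). Gnas, which encodes the stimulatory G protein alpha subunit and several imprinted forms, was at 287, 345 and 348 against 313, 351 and 375 (adjusted p = 0.724). Its exons overlap genes on the other strand over 22.0% of their length, and its forms from different parental copies were summed.

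Noncoding RNAs made up 7 of the members, and 3 of them rose, with a median log2 fold change of 0.55 against 0.04 for the 33 coding members. The 3 were Meg3, Rian and Mirg, neighbours on the same strand of 1 locus, so they are not 3 independent observations. The median of 0.55 is the value of Mirg. Long noncoding genes as a class were also called higher more often than lower. Over all 3140 tested, 1.85% were higher and 0.573% lower, against 2.92% and 3.63% of the 17232 protein-coding genes tested. Among 170 long noncoding genes with a mean of at least 100, which include these 7, 30 were higher (17.6%) and 2 lower (1.18%), with a median of 0.12. Among 10959 protein-coding genes at that level, 3.56% were higher and 4.80% lower, with a median of -0.02. The rise of Meg3, Rian and Mirg is therefore read beside 17.6%, not beside 2.31%. Of 5 nuclear noncoding RNAs with no imprinting, chosen after the values of the members were seen, Neat1 rose from 237, 217 and 227 to 382, 360 and 346 (0.67, limma adjusted p = 0.00084). Malat1 had 11612 ± 1272 against 13151 ± 2413 (adjusted p = 0.473). The part of a general shift of nuclear or long noncoding RNA in the members' rise was not tested.

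**Figure D4:**
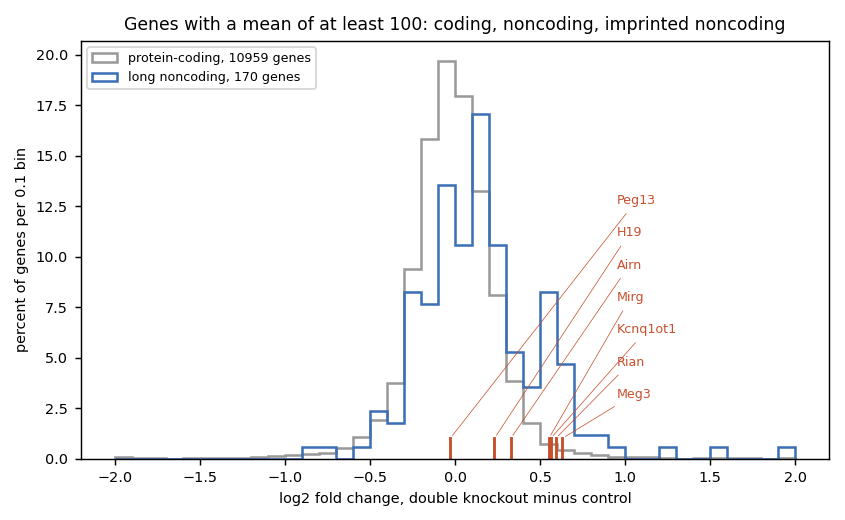
Distribution of log2 fold changes, as percent of genes per bin of 0.1, for 10959 protein-coding genes (grey) and 170 long noncoding genes (blue) with a mean of at least 100; red ticks give the 7 imprinted noncoding RNAs, and values past 2 in either direction are drawn in the last bin. The blue curve has a second hump between 0.5 and 0.7, where Meg3, Rian, Mirg and Kcnq1ot1 lie. The 170 genes of that curve include the 7 imprinted noncoding RNAs, which therefore add to its shape.

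Ratios of 2 transcripts of the same locus within a library cancel the scaling of libraries. They do not cancel the trend with GC content, which moved with genotype. For 13 such ratios, an exact two-sided permutation test of 3 against 3 libraries cannot go below p = 0.1, so none could pass. In 5 of the 13 the genotypes did not overlap and p was 0.1, the smallest possible (0.26 after Benjamini-Hochberg adjustment over the 13). Of single tested genes, 21.7% did not overlap in either direction. The same share for ratios of other gene pairs was not computed. The Peg10/Sgce log2 ratio was 1.58, 1.94 and 1.71 in controls and 2.38, 2.32 and 2.46 in double knockouts. Airn/Igf2r was -6.10, -5.98 and -5.97 against -5.66, -5.65 and -5.55. Kcnq1ot1/Cdkn1c was -3.78, -3.32 and -3.97 against -2.91, -3.11 and -2.82. For both antisense RNAs, each double knockout ratio to the gene they are known to silence was above each control ratio. Mest/Copg2 was higher by 0.20 and Peg3/Zim1 differed by -0.37. The Dlk1/Meg3 ratio differed by -0.58, but control 3 (-2.99) lay below double knockout 2 (-2.84) (exact permutation p = 0.2). Rian/Meg3 differed by -0.04 (exact permutation p = 0.8).

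**Figure D5:**
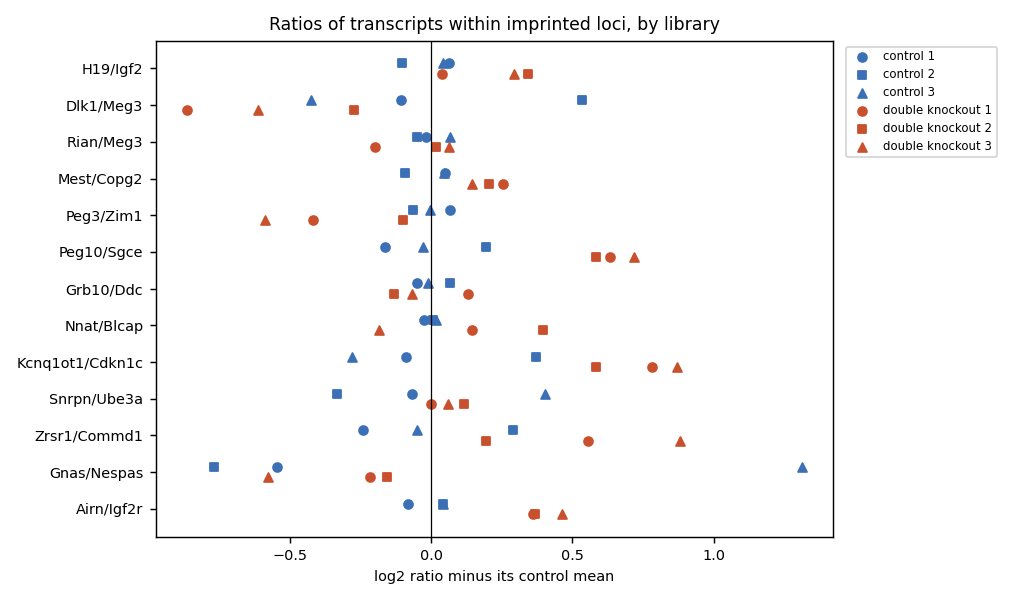
Log2 ratio of 2 transcripts of 1 locus in each library, minus the mean of that ratio in controls, for 13 ratios; blue points are controls and red points double knockouts. Genotypes separate for Mest/Copg2, Peg3/Zim1, Peg10/Sgce, Kcnq1ot1/Cdkn1c and Airn/Igf2r and overlap for the other 8.

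Counts of calls in the lists below stand beside 2.31% higher and 2.55% lower over all tested genes. Of 37 other imprinted genes tested, 1 was higher and 2 lower, with a median log2 fold change of 0.01. Pon2, a paraoxonase gene, rose from 627 ± 49.4 to 909 ± 45.4 (0.54, limma adjusted p = 0.00143). Dhcr7, a cholesterol synthesis gene, fell from 659 ± 29.3 to 492 ± 49.0 (-0.43, adjusted p = 0.0158). Dhcr7 did not pass when any one control or double knockout 2 or 3 was omitted. The other call was Klf14, above. Of 24 tested genes that keep imprints or write DNA methylation, 3 were higher and 2 lower, with a median of 0.02. Trim28, the corepressor recruited by ZFP57, fell from 8125 ± 190.5 to 6337 ± 475.5 (-0.36, adjusted p = 0.0158). Arid4b (0.37, adjusted p = 0.0251), Hells (0.36, adjusted p = 0.0296) and Zfp568 (0.33, adjusted p = 0.0380) rose. Mbd3, the fifth call, fell by 0.34 on the log2 scale (adjusted p = 0.0457). None of these 5 passed when control 1, control 3 or double knockout 3 was omitted. Zfp57 itself had 1158 ± 32.5 against 1342 ± 46.6 (adjusted p = 0.165), and Dnmt1, the maintenance methyltransferase, was at 5730 to 5839 in controls and 5047 to 5694 in double knockouts (adjusted p = 0.4202). Of 128 tested protein-coding genes within 500 kb of a member and on no list of imprinted genes, which leaves out the called genes Klf14 and Pon2, 5 were higher and 6 lower, with a median of 0.02. The lowest adjusted p among them was that of Tgfb1i1, a focal adhesion gene near Inpp5f, which fell from 1459 ± 83.7 to 830.3 ± 62.6 (-0.81, adjusted p = 1.32e-05).

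Marker lists of cell types were summed per library. Their calls stand beside the same 2.31% higher and 2.55% lower over all tested genes. The 10 cardiomyocyte markers had 0 calls, and their sum was 506652 to 548703 in controls and 460422 to 545836 in double knockouts. Fibroblast and mesenchyme markers (1 of 10 called, lower) summed to 25176 to 33078 and 21316 to 41459. Endothelial markers (1 of 10 called, higher) summed to 23650 to 28399 and 25501 to 30622, epicardial ones (1 of 8 higher, 1 lower) to 6877 to 8366 and 6782 to 8416, and mural ones (0 of 7 called) to 8816 to 9036 and 7881 to 10499. Neural markers (0 of 8 called) summed to 794 to 913 and 681 to 1004. Of 8 atrial markers 4 were lower (Myl7, Stard10, Kcna5 and Nr2f1) and 0 higher, with sums of 67541 to 85136 and 57680 to 65241. Erythroid markers (0 of 7 called, 7 above 0) summed to 38252 to 104233 and 81178 to 115398, and leukocyte markers (1 of 7 called, higher) to 1186 to 1261 and 1220 to 1487. Markers of liver and foregut summed to 38 or less in each library, and those of skeletal muscle precursors to 5 or less. The part of these differences in the changes of imprinted genes was not tested.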

How the data were processed

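Each library has 1 column in the deposited table. Its values are a score made by the authors, whole numbers that behave as read counts multiplied by a library factor and then rounded: evenly spaced whole numbers are missing (19 below 400 in control 3, 21 in double knockout 1). The submitters' processing notes name mm10, STAR 2.4.2a, featureCounts 1.5.0, Trimmomatic, DESeq and DESeq2, with no roles; no source used here gives strand or multi-mapping settings. Because the values are rounded, no count model was used, which the design allowed for. Reads per library were estimated from how often each whole number occurs.

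Genes with a mean of at least 1 in 1 genotype (26747) were tested on log2(value + 1) by limma 3.58.1 (R 4.3.3) with variance trend and robust moderation, two-sided, and adjusted by Benjamini-Hochberg over all of them. Fold changes on this scale understate those of low genes. Coordinates, exon lengths and GC content came from GENCODE M21 (GRCm38, the assembly of mm10), which held 99.3% of the gene identifiers. Correction for GC and length used splines of 5 degrees of freedom per library. Members, lists and tests were chosen with earlier results of these data known. The rule for named genes gave values per library for members past the threshold and for the most abundant member of each locus, and from other lists up to 4 genes past the threshold with the lowest adjusted p, or the 2 most abundant, and genes in a ratio. Marker lists without calls are given as sums instead. Values per library of further members, and Pex3, Mbd3, Zfp57, Dnmt1, Malat1 and Mir335, were chosen after values were seen. On simulated data for this comparison (25666 genes, 200 of them changed), the share recovered was 44.8% at 1.5-fold, 80.6% at 2-fold and 92.4% at 4-fold. Of those calls, 5.84% were false. Without robust moderation these shares were 34.3%, 73.1% and 86.4%, with 0% false calls. The real comparison called 1299 genes, and its trend with GC content moved with genotype. Whether the simulated data carried that trend was not recorded here, so 5.84% is not read as the rate of false calls among the 6 members.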

Additional observations from a re-analysis of the deposited data

How the results depend on the processing

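Among all tested genes, 618 were higher and 681 lower, against 963 higher with no filter on low values, 144 and 206 without robust moderation, 96 and 73 without the variance trend, and 14 and 24 without both libraries numbered 3. Leaving out 1 library gave 186 to 608 higher and 234 to 739 lower, with both counts down by over 1.5 times without control 1, control 3 or double knockout 3. Of the imprinted members, 4 higher and 2 lower became 9 higher with no filter (H19, Zim1, Mest, Kcnq1ot1 and Airn added), 1 lower with quantile normalisation, 2 and 1 without robust moderation, 0 and 0 without the variance trend, 0 and 0 without both libraries numbered 3 (limma; 10 and 7 members had an unadjusted p under 0.05 in these last 2 settings), and 1 lower with a male or female pattern as a covariate, an alternative chosen after seeing the data. Leaving out 1 library gave 2 to 8 higher (2 without control 1, 8 without double knockout 2) and 1 to 1 lower. The share of all tested genes with an unadjusted p under 0.05 was not computed, so the 10 and 7 members have nothing to stand beside. The 6 called members kept their sign in each setting run. The cause of these shifts was not tested.

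With the replicate number as a block, 674 genes were higher and 681 lower, 4 members were higher besides Zim1, which makes 5, and 1 was lower, since Usp29 was lost. Deviations of same-numbered libraries correlated at 0.0517, 0.0697 and 0.329, not all above 0.1, so the shared numbers were not taken as a pairing. Control 1 correlated best with double knockout 2.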
